A study of Mus musculus with 18 samples.

Results

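The Kruppel-like factors examined here are 10 genes, Klf2, Klf3, Klf4, Klf5, Klf6, Klf7, Klf9, Klf10, Klf13 and Klf15, out of the 56691 genes of the deposited expression table. They were taken by symbol, and none of the 10 symbols had a repeated row. The table holds 17 genes named Klf and a number, and the remaining 7 are described together near the end. Expression was measured by RNA-seq in mouse bone marrow mesenchymal stromal cells (BMSCs), adherent cells that can form osteoblasts, adipocytes and chondrocytes. The cells were labelled wild type (wt), and the methods describe isolation from collagenase-treated compact bone of the femurs and tibiae. They were grown for 4 days in culture medium (CM), osteogenic induction medium (OI) or adipogenic induction medium (AI), each with 0 or 20 ng/ml recombinant mouse FGF9, a secreted fibroblast growth factor (CM_F9, OI_F9, AI_F9). Each of the 6 groups held 3 samples, 18 in all. OI supplies ascorbate-2-phosphate, beta-glycerol phosphate and a low dose of dexamethasone, and AI supplies dexamethasone at a higher dose, rosiglitazone, a phosphodiesterase inhibitor and insulin. Both are built on another base than the commercial medium named for culture, so the agents of a medium and its base cannot be told apart. Strain, sex and age of the cell donors for these libraries, and whether replicates came from separate animals, are not given in the sources used here, so p values here speak only for the spread of these libraries, which may be technical.

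Kruppel-like factors are transcription factors with zinc fingers at the carboxyl end that bind GC-rich and CACC sequences, and they differ mainly in the domains that recruit coactivators or corepressors. In fat cell formation the family is divided. Klf4, Klf5, Klf9 and Klf15 are known to promote it in mouse preadipocytes, Klf5 and Klf9 partly through Pparg and Klf4 through Cebpb, whereas Klf2, Klf3 and Klf7 hold it back, Klf2 by repressing Pparg and Klf3 by recruiting the corepressor CtBP. Klf9 and Klf15 are direct targets of the glucocorticoid receptor in several tissues, Klf10 is an early target of TGF-beta first found in human osteoblasts, and Klf2 and Klf4 lie downstream of the kinase ERK5 and the MEF2 factors in endothelial cells.

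The libraries held 16719561 to 20526502 counted reads with a median of 18813494, and no library stood apart in depth. Counts were compared for the 17631 genes that passed a filter on low counts, among them all 10 Kruppel-like factors. Levels are FPKM, counted reads scaled by gene length and library total, and fold changes and tests come from the counts (edgeR, quasi-likelihood test). A gene was called where its absolute log2 fold change was at least 1 and its adjusted p at most 0.05, and "rose" and "fell" are used for an adjusted p of at most 0.05 whatever the size. The 4 stromal markers were present in every group, with mean Itgb1 levels of 179 to 433 FPKM and mean Pdgfra levels of 28.5 to 74.2 FPKM. Their levels were not steady. Mean Cd44 ran from 14.6 FPKM in AI_F9 to 81.6 FPKM in CM_F9, and mean Ly6a from 13.9 FPKM in AI to 326 FPKM in OI_F9. With FGF9 in CM, 3 of the 4 were called higher and none lower, beside 5.5% and 5.16% of all tested genes. In AI against CM, 2 were called lower and none higher, beside 13.5% and 8.68%. Of the markers that should be low, Pecam1 of endothelial cells had means of 0.34 to 1.9 FPKM and Ptprc of blood cells 0.37 to 3.62 FPKM. Cd34 reached a mean of 15.2 FPKM in CM_F9, and 14 macrophage genes summed to 397 to 1617 FPKM over the libraries, so transcripts of macrophages were present in these cultures. In such bulk samples, fewer cells of a type and less RNA per cell cannot be told apart.

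The 10 genes had unlike patterns over the 6 groups. Klf2 had the widest range, from a mean of 23.7 FPKM in OI to 0.317 FPKM in AI_F9, a 75.0-fold span. Klf15 spanned 7.71-fold, Klf7 6.81-fold, Klf4 6.36-fold and Klf6 5.73-fold, while Klf10 and Klf13 stayed within 1.99-fold and 1.75-fold. Klf2, Klf3, Klf4, Klf6 and Klf7 had their lowest mean in AI_F9. Klf5, Klf9 and Klf13 had their lowest mean in CM, Klf15 had it in CM_F9 and Klf10 in OI.

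**Figure D1:**
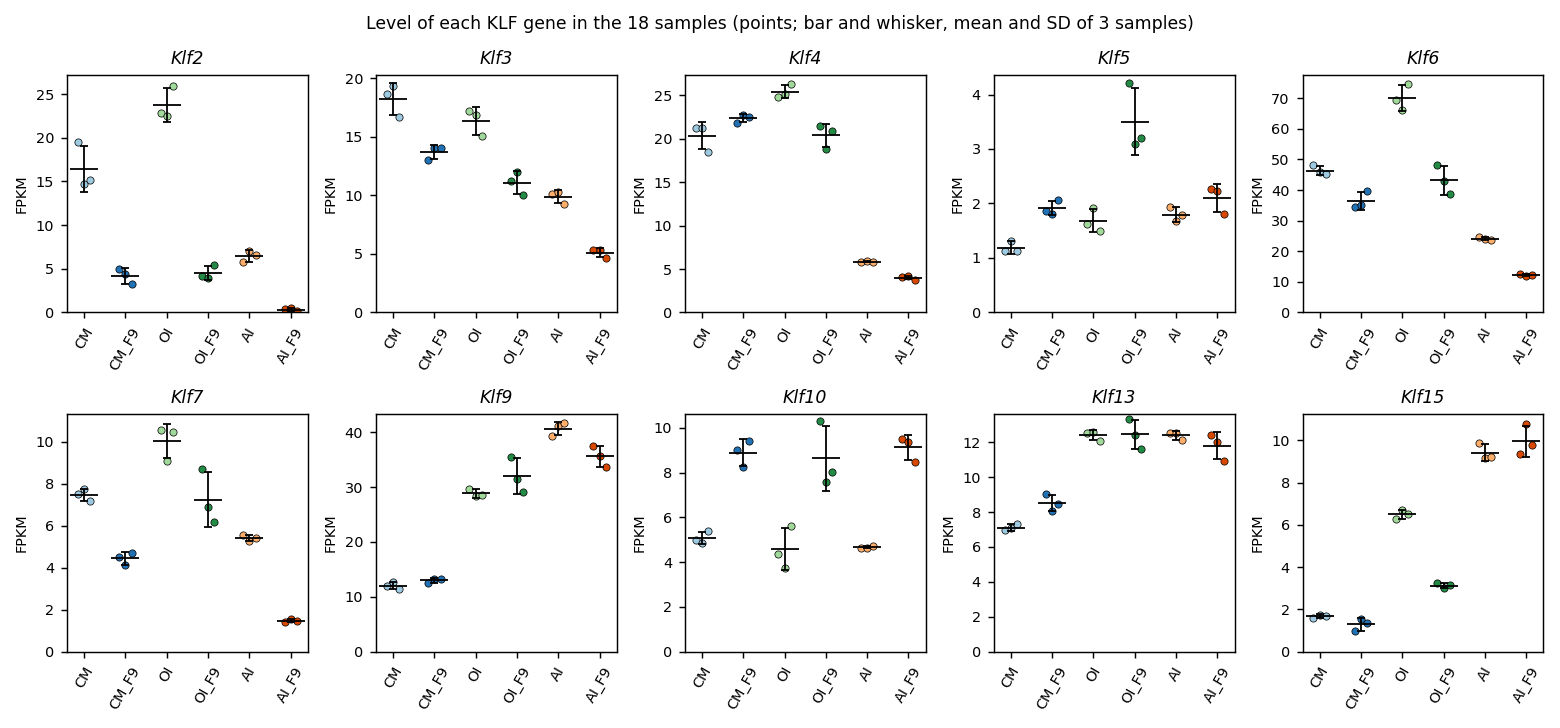
Level of each of the 10 Kruppel-like factor genes (FPKM, linear axis from 0) in the 18 samples, with points for samples and a bar and whisker for the mean and SD of 3 samples per group. Klf2 falls from 14.7 to 26.0 FPKM in the CM and OI libraries to at most 0.47 FPKM in AI_F9, while Klf9 and Klf15 stand higher in the OI and AI libraries than in CM.

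Summed over the 10 genes, the level was 136 ± 5.93 FPKM in CM and 115 ± 3.39 FPKM in CM_F9 (SD, n = 3 here and below). It was 199.6 ± 6.83 FPKM in OI and 146 ± 12.5 FPKM in OI_F9, and 121 ± 0.685 FPKM in AI and 91.7 ± 4.37 FPKM in AI_F9. In each medium, the 3 libraries with FGF9 lay below the 3 without it. These sums take FPKM as deposited, without the factors for library composition that scaled the counts in the tests. For AI this matters, because its factors all exceeded 1.05 while no AI_F9 factor exceeded 0.93. With each library divided by its factor, mean Klf9 was 38.4 FPKM for AI against 38.75 for AI_F9, and mean Klf6 22.8 against 13.3. Part of the lower sum in AI_F9 thus goes with the scaling. The leading member changed with the medium. Klf6 took 34.1 ± 0.644% of the summed FPKM in CM, 35.1 ± 0.968% in OI and 20.0 ± 0.490% in AI. Klf9 took 8.87 ± 0.441% in CM, 14.5 ± 0.583% in OI and 33.7 ± 0.938% in AI. Klf6 was thus the most abundant of the 10 in CM and OI, with and without FGF9, and Klf9 was the most abundant in AI and AI_F9. Under FGF9 in AI, Klf2 made up 0.340 ± 0.186% of the sum and was the least abundant of the 10.

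**Figure D2:**
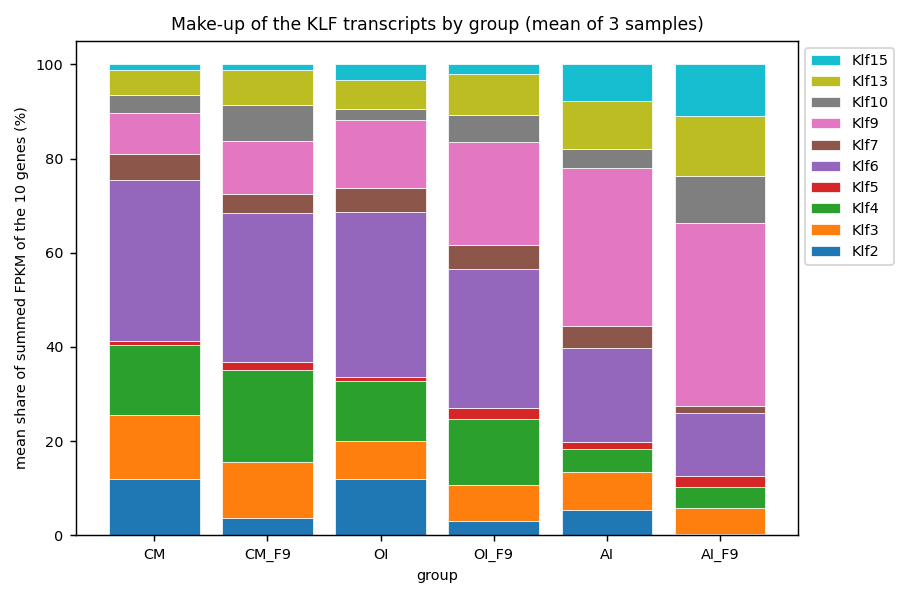
Mean share of each gene in the summed FPKM of the 10 Kruppel-like factors (%), stacked by group, each bar the mean of 3 samples. Klf6 is the largest part in CM, CM_F9, OI and OI_F9, and Klf9 is the largest part in AI, at 33.7%, and in AI_F9, at 38.8%.

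RefSeq start regions, 250 bases before to 50 bases after the start on GRCm38.p6, were at hand for 8 of the 10 genes, Klf5 and Klf10 being those without an entry. The regions of Klf2, Klf9 and Klf15 are shown because Klf2 carried the largest response to FGF9, and Klf9 and Klf15 rose together in both induction media. Klf2 lies on the plus strand at chr8:72318812-72319111, Klf9 on the plus strand at chr19:23140976-23141275 and Klf15 on the plus strand at chr6:90462326-90462625. Capitals mark the CACC box CACCC and the GC box GGGCGG on either strand, the letters that Kruppel-like factors and the related SP factors are known to bind.
Klf2: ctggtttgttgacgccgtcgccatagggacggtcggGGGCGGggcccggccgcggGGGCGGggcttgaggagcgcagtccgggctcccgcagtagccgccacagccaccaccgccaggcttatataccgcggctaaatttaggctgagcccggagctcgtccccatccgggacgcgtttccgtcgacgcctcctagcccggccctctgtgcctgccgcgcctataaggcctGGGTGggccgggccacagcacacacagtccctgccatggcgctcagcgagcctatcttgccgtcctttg
Klf9: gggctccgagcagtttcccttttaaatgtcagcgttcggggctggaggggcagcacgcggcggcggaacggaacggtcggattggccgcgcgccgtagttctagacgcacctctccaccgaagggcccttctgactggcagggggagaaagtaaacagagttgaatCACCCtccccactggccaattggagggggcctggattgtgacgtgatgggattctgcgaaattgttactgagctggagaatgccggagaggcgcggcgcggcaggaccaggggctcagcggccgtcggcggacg
Klf15: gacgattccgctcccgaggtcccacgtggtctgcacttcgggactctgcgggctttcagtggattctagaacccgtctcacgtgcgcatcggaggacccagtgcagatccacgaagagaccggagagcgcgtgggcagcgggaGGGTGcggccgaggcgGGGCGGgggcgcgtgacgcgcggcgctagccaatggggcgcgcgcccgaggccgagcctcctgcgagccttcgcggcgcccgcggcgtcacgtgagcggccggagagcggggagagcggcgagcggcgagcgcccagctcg
The Klf2 region held 1 CACC box and 2 GC boxes, that of Klf9 1 CACC box and no GC box, and that of Klf15 1 of each. Of the 8 regions, 6 held a CACC box and 7 a GC box. Over all 32851 RefSeq start regions of the same length, 57.5% held a CACC box and 35.7% a GC box. In the 8 regions, G and C made up 58.3% to 76.7% of bases. The glucocorticoid receptor half-site TGTTCT, found on either strand in 19.0% of all start regions, was in none of the 8, which says only that these letters are not in these windows. The files' own gene positions, given below with each gene, are those of GRCm39 and belong to another build than these regions.

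Each FGF9 group was set against the same medium without FGF9 to ask which Kruppel-like factors follow the growth factor and whether the medium matters. In CM, 1 of the 10 genes was called, Klf2, which was lower, where 5.5% of all tested genes were called higher and 5.16% lower. By the adjusted p alone, 3 of the 10 rose and 5 fell, where 37.3% of all tested genes passed in either direction. In OI, 1 was called higher, Klf5, and 2 lower, Klf2 and Klf15, against 5.48% and 6.07% of all tested genes, and 2 rose and 6 fell by the adjusted p alone, against 39.9% of all tested genes in either direction. In AI, 1 was called higher, Klf10, and 2 lower, Klf2 and Klf7, against 6.66% and 9.32% of all tested genes, and 3 rose and 5 fell, against 50.6%. Over the 10 genes, the median log2 fold change was -0.18, -0.44 and -0.16 for CM, OI and AI, beside 0.02, 0.01 and 0.05 over all tested genes. The 3 comparisons share no samples with each other, but each shares its control samples with the comparisons of media below.

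**Figure D3:**
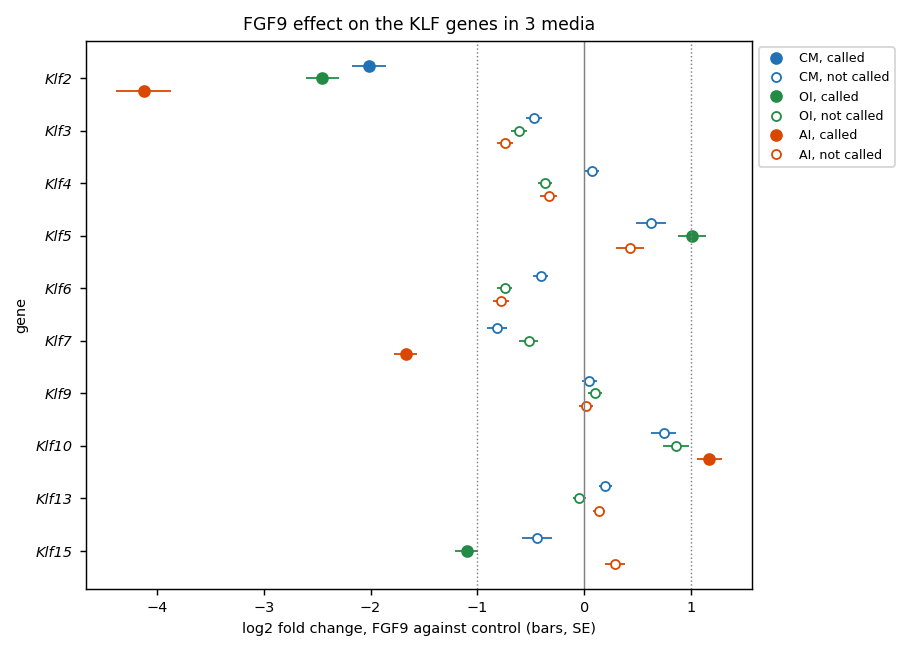
Log2 fold change of each gene with FGF9 against its control in CM, OI and AI (points, bars are the SE of the fit), filled where the gene was called, with dotted lines at -1 and 1. Klf2 lies at -2.02, -2.45 and -4.13 and is called in each medium, while Klf9 lies within 0.10 of 0 in each.

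Klf2, a flow-responsive factor of endothelial cells and a keeper of quiescence in lymphocytes that also represses Pparg, lies on chromosome 8 (73072877 to 73075500, plus strand). In CM its level was 19.5, 14.7 and 15.2 FPKM, and with FGF9 it was 5.01, 4.44 and 3.21 FPKM. In OI it was 22.8, 22.5 and 26.0 FPKM, and with FGF9 it was 4.13, 3.92 and 5.41 FPKM. In AI it was 5.75, 7.07 and 6.60 FPKM, and with FGF9 it was 0.36, 0.47 and 0.12 FPKM. In each medium the 3 libraries with FGF9 were the lowest, with no overlap. The log2 fold change was -2.02 ± 0.16 in CM (SE, adjusted p = 3.89e-10), -2.45 ± 0.16 in OI (adjusted p = 8.81e-12) and -4.13 ± 0.26 in AI (adjusted p = 4.13e-12). The AI_F9 libraries held only 13, 17 and 4 reads of Klf2, 34 in all, against 672 in AI, and the ratio per library total was 20.3 (exact 95% interval of counting error, 14.4 to 29.6). In the order of the 6 group means, OI stood above CM, AI, OI_F9, CM_F9 and AI_F9, and each neighbour was apart except OI_F9 and CM_F9, whose ranges overlapped.

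Genes that mark other cell types were also lower with FGF9. Beside the counts that follow, 5.16% of all tested genes were called lower in CM, 6.07% in OI and 9.32% in AI. Of 8 smooth muscle genes, 7 were called lower with FGF9 (CM), 8 (OI) and 6 (AI), and their summed level was 1191 to 1340 FPKM in CM and 153 to 161 FPKM in CM_F9, 994.5 to 1212 FPKM in OI and 61.9 to 83.7 FPKM in OI_F9, and 291 to 332 FPKM in AI and 2.13 to 2.53 FPKM in AI_F9. By its mean, the smooth muscle sum ranked CM, OI, AI, CM_F9, OI_F9 and AI_F9, with CM and OI overlapping. Acta2 made up 868 of its mean of 1265 FPKM in CM. Klf2 was highest in OI without overlap, and so were Lmod1, Myh11 and Des of the list. Myl9 and Cnn1 were lower in OI than in CM, and Acta2, Tagln and Actg2 overlapped between OI and CM. Of 13 tested endothelial genes of a list of 14, 3 were called lower in CM, 3 in OI and 10 in AI. Their summed level went from 9.17 to 11.9 FPKM in CM to 7.07 to 7.78 FPKM in CM_F9, from 14.7 to 17.3 FPKM in OI to 7.47 to 8.51 FPKM in OI_F9, and from 16.4 to 18.5 FPKM in AI to 6.65 to 7.65 FPKM in AI_F9. In CM the called genes were Erg, Tek and Emcn, at -2.69, -1.69 and -1.14, Vwf fell by 0.90 (adjusted p = 0.00668), and the other 9 tested genes, Pecam1 and Cdh5 among them, did not pass the test. Of 14 macrophage genes, 3 were called lower and 1 higher in CM, where 5.5% of all tested genes were called higher. None was called in OI, where 8 fell and 1 rose by the adjusted p alone in edgeR, beside 39.9% of all tested genes. In AI, 12 were called lower, and the sum of the 14 went from 1398 to 1617 FPKM down to 397 to 436 FPKM. Lyz2 alone made up 1182 FPKM of the mean sum of 1483 FPKM in AI and 342 of 413 FPKM in AI_F9. Without FGF9, 3 of the 14 were called higher and 6 lower in AI against CM, beside 8.68% and 13.5% of all tested genes. None of the marker genes of these 3 lists was without reads in any group. Their part in the result was not tested.

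**Figure D4:**
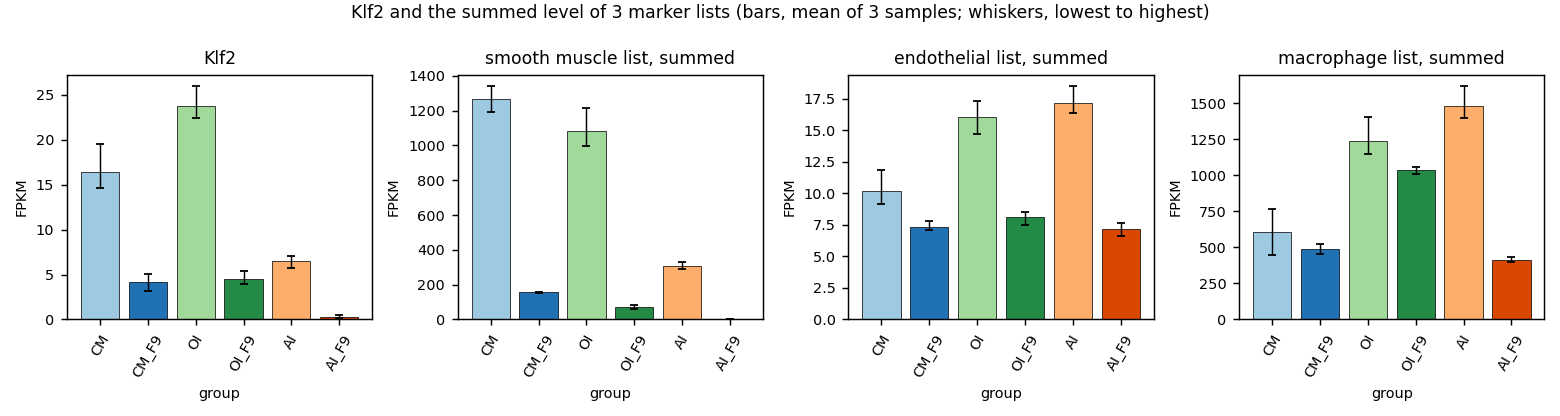
Level of Klf2 and the summed level of the 8 smooth muscle, 14 endothelial and 14 macrophage genes by group (FPKM, linear axes from 0), with bars for the mean of 3 samples and whiskers from the lowest to the highest sample. Klf2 is lower with FGF9 in each medium, as are the smooth muscle and endothelial sums, and the macrophage sum in AI_F9 is 413 FPKM on average against 1483 FPKM in AI. Lyz2 alone makes up 1182 FPKM of that mean in AI.

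The genes known to act above Klf2 in endothelial cells, the ERK5 and MEF2 arm with the proteins of cerebral cavernous malformation, were measured beside it. Of 11 tested genes of 12, 1 was called higher and none lower in CM, 1 higher and 1 lower in OI, and 2 lower and none higher in AI, with medians of -0.19, -0.12 and -0.19, beside the shares of all tested genes given above (5.5% higher and 5.16% lower in CM, 5.48% and 6.07% in OI, 6.66% and 9.32% in AI). By the adjusted p alone in edgeR, 2 rose in CM and 5 fell, 2 moved each way in OI, and in AI 6 fell and none rose. Of all tested genes, 37.3%, 39.9% and 50.6% passed in either direction in these media. Mef2a, a MEF2 factor, was 14.9, 14.96 and 14.5 FPKM in CM and 35.0, 35.3 and 34.5 FPKM in CM_F9. Its log2 fold change was 1.18 (CM), 1.20 (OI) and -0.34 (AI), with adjusted p of 2.09e-14, 1.36e-14 and 1.76e-05. Mef2c, another MEF2 factor, was called lower in AI, at -1.56, and Heg1, a receptor of the cavernous malformation pathway, was called lower in OI, at -1.50, and in AI, at -1.38. Mapk7, the gene of ERK5 itself, fell by 0.89 in AI and by 0.27 in CM, and in OI its log2 fold change was -0.12 (adjusted p = 0.360). The part of these genes in the level of Klf2 was not tested.

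Klf4, a factor of epithelial barrier formation and of the pluripotency set that binds the Cebpb promoter early in fat cell formation, lies on chromosome 4 (55527143 to 55532466, minus strand) and responded little to FGF9. It was 21.3, 21.3 and 18.5 FPKM in CM and 21.8, 22.8 and 22.5 FPKM in CM_F9, with a log2 fold change of 0.07 ± 0.07 (adjusted p = 0.414). In OI it went from 24.8, 25.2 and 26.3 FPKM to 21.5, 18.8 and 20.9 FPKM, and in AI from 5.75, 5.87 and 5.82 FPKM to 4.07, 4.16 and 3.77 FPKM. Klf4 therefore fell in OI and AI, without overlap, by 0.37 and 0.33 on the log2 scale (adjusted p = 8.50e-05 and 0.00165), under the size of a call. In the order of its means, OI led CM_F9, OI_F9, CM, AI and AI_F9, and the neighbours OI_F9 and CM overlapped.

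Klf3, Klf6 and Klf7 fell with FGF9 in each medium. Klf3, a repressor that works with CtBP, lies on chromosome 5 (64960731 to 64990244, plus strand) and was 18.6, 19.3 and 16.7 FPKM in CM against 13.0, 14.0 and 14.1 FPKM in CM_F9. It was 17.2, 16.9 and 15.02 FPKM in OI against 11.2, 11.96 and 10.1 FPKM in OI_F9, and 10.1, 10.2 and 9.22 FPKM in AI against 5.34, 5.29 and 4.67 FPKM in AI_F9. The groups did not overlap in any medium, and the log2 fold change was -0.47 (CM), -0.61 (OI) and -0.74 (AI), with adjusted p of 1.43e-05, 3.88e-07 and 2.03e-08. The opposite-strand gene that overlaps Klf3 held 0.800% as many reads as Klf3.

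Klf6, an early growth-responsive factor known to repress Dlk1 in mouse preadipocytes, lies on chromosome 13 (5911481 to 5920393, plus strand). It was 48.0, 45.8 and 45.1 FPKM in CM and 34.4, 35.2 and 39.6 FPKM in CM_F9. It was 69.4, 66.0 and 74.6 FPKM in OI and 48.2, 42.8 and 38.7 FPKM in OI_F9, and 24.7, 23.9 and 23.7 FPKM in AI and 12.7, 11.9 and 12.1 FPKM in AI_F9. The libraries with FGF9 were lower throughout, with log2 fold changes of -0.41, -0.75 and -0.78 (adjusted p = 6.30e-05, 8.25e-09 and 7.37e-09). Its group order was OI, CM, OI_F9, CM_F9, AI and AI_F9, and CM overlapped OI_F9, which overlapped CM_F9.

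Klf7, a factor of neuron outgrowth that holds back human preadipocytes, lies on chromosome 1 (64068606 to 64161441, minus strand). Its level was 7.51, 7.74 and 7.18 FPKM in CM and 4.53, 4.12 and 4.68 FPKM in CM_F9. In OI it was 10.6, 9.10 and 10.5 FPKM and in OI_F9 it was 8.69, 6.87 and 6.17 FPKM. In AI it was 5.58, 5.27 and 5.40 FPKM and in AI_F9 it was 1.42, 1.55 and 1.45 FPKM, below every other library. The log2 fold change was -0.81 ± 0.09 (CM), -0.52 ± 0.09 (OI) and -1.67 ± 0.11 (AI), with adjusted p of 2.00e-07, 5.84e-05 and 4.31e-12, and of these only the fall in AI was called.

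Klf10, an early gene of TGF-beta signaling also called TIEG1, lies on chromosome 15 (38291707 to 38300950, minus strand) and was higher with FGF9. It was 4.98, 4.87 and 5.39 FPKM in CM and 9.02, 8.24 and 9.42 FPKM in CM_F9. It was 4.37, 3.76 and 5.63 FPKM in OI and 10.3, 7.57 and 8.03 FPKM in OI_F9, and 4.63, 4.65 and 4.72 FPKM in AI and 9.51, 9.37 and 8.48 FPKM in AI_F9. The 9 libraries with FGF9 lay above the 9 without it. The log2 fold change was 0.74 (CM), 0.86 (OI) and 1.17 (AI), with adjusted p of 1.63e-05, 2.65e-06 and 1.30e-08. The call in AI was lost with library-size scaling, at 0.97, and with limma on log2 FPKM plus 0.1, 0.5 or 1, at 0.95, 0.90 and 0.84, and OI was called, at 1.03, without OI replicate 3.

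Other genes known to be induced by TGF-beta were measured beside Klf10. Of 10 listed genes, 1 was called higher and 3 lower with FGF9 in CM, 1 higher and 2 lower in OI, and 6 lower and none higher in AI, with medians of -0.26, -0.34 and -1.06. Of all tested genes, 5.5% were called higher and 5.16% lower in CM, 5.48% and 6.07% in OI, and 6.66% and 9.32% in AI. Tgif1, a corepressor of SMAD proteins, was the one called higher, by 1.38 in CM and 1.29 in OI, and it had a log2 fold change of -0.04 in AI (adjusted p = 0.665). Ccn2, a matricellular protein, had log2 fold changes of -1.79, -1.97 and -4.44 in the same 3 media (adjusted p = 7.58e-13, 1.20e-13 and 1.85e-18). Klf10 and Tgif1 thus stood higher and Ccn2 lower in the CM and OI libraries with FGF9.

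Of the members known to favour fat cell formation, Klf5, a factor of proliferating epithelium and smooth muscle that acts on Pparg with the C/EBP proteins, lies on chromosome 14 (99536127 to 99552472, plus strand) and was low throughout. It was 1.13, 1.32 and 1.12 FPKM in CM and 1.87, 1.81 and 2.07 FPKM in CM_F9. It was 1.63, 1.91 and 1.5 FPKM in OI and 4.21, 3.10 and 3.2 FPKM in OI_F9, and 1.93, 1.67 and 1.79 FPKM in AI and 2.27, 2.22 and 1.80 FPKM in AI_F9. The libraries with FGF9 were higher without overlap in CM and OI and overlapped in AI. The log2 fold change was 0.62 ± 0.14 (CM), 1.01 ± 0.13 (OI) and 0.43 ± 0.14 (AI), with adjusted p of 0.00111, 1.21e-06 and 0.0105. The call in OI rested on a value just over the threshold and was lost in DESeq2, at 0.99. It was also lost without OI replicate 1, OI replicate 3 or OI_F9 replicate 1, at 0.99, 0.94 and 0.86. With limma on log2 FPKM plus 0.5 or 1 it was lost too, at 0.87 and 0.74. The rise in AI had an adjusted p of 0.171 with library-size scaling, 0.222 to 0.226 with limma and 0.0626 without AI replicate 2.

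Klf15, a factor of glucose and amino acid metabolism that raises the glucose transporter gene Slc2a4, lies on chromosome 6 (90439558 to 90452220, plus strand). It fell with FGF9 in CM and OI and rose slightly in AI, and the changes in CM and AI were lost under several alternatives. In CM it was 1.60, 1.76 and 1.71 FPKM and in CM_F9 it was 0.97, 1.56 and 1.35 FPKM. In OI it was 6.26, 6.72 and 6.51 FPKM and in OI_F9 it was 3.23, 3.02 and 3.14 FPKM. In AI it was 9.88, 9.17 and 9.22 FPKM and in AI_F9 it was 9.34, 10.8 and 9.80 FPKM. The libraries with FGF9 were the lower ones in CM and OI, without overlap, and overlapped with the control in AI. The log2 fold change was -0.44 ± 0.14 (CM), -1.10 ± 0.11 (OI) and 0.29 ± 0.10 (AI), with adjusted p of 0.0142, 1.53e-08 and 0.0168. The call in OI was lost with limma on log2 FPKM plus 0.5 or 1, at -0.95 and -0.86. The rise in AI depended on the scaling, with 0.08 and an adjusted p of 0.510 under library-size scaling. That rise was not past the test without AI replicate 2, AI replicate 3 or AI_F9 replicate 2 (adjusted p = 0.0848, 0.0616 and 0.0859). Nor did it pass with no filter on low counts (adjusted p = 0.0757) or with limma (adjusted p of 0.492 to 0.608). The fall in CM was not past the test without CM_F9 replicate 1, at -0.27 (adjusted p = 0.149), without CM replicate 2 (adjusted p = 0.0531) or in a fit of the compared groups alone (adjusted p = 0.0728).

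Klf9, a factor of circadian and hormone responses known to act on Pparg, lies on chromosome 19 (23118590 to 23145498, plus strand) and did not pass the test with FGF9 in any medium, with log2 fold changes of 0.05 ± 0.07 (CM), 0.10 ± 0.07 (OI) and 0.01 ± 0.07 (AI), with adjusted p of 0.641, 0.249 and 0.888. In AI its level was 39.4, 41.1 and 41.6 FPKM against 37.5, 35.6 and 33.6 FPKM in AI_F9, so the FPKM of the libraries with FGF9 were lower, and with library-size scaling the value was -0.19 (adjusted p = 0.0132). The composition factors of the libraries, by which the counts were scaled, lay between 1.05 and 1.06 in AI and between 0.906 and 0.928 in AI_F9. Klf13, a close relative of Klf9 known from heart and lymphocytes, lies on chromosome 7 (63536099 to 63588663, minus strand) and rose in CM, from 6.95, 7.06 and 7.32 FPKM to 9.01, 8.09 and 8.46 FPKM. The groups did not overlap, but the log2 fold change was only 0.20 ± 0.06 (adjusted p = 0.0117), and it did not pass without CM replicate 1 or CM_F9 replicate 1 (adjusted p = 0.0618 and 0.0830). In OI and AI the levels of Klf13 overlapped, at 12.1 to 12.6 FPKM against 11.6 to 13.3 FPKM and 12.1 to 12.5 FPKM against 10.9 to 12.4 FPKM, with log2 fold changes of -0.04 and 0.14 (adjusted p = 0.581 and 0.0554).

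The media without FGF9 were compared next, to ask which Kruppel-like factors go with osteogenic or adipogenic induction. Between OI and CM, 2 of the 10 genes were called higher, Klf9 and Klf15, where 3.55% of all tested genes were called higher, and none was called lower, where 1.93% were. By the adjusted p alone in edgeR, 8 rose and none fell, where 22.6% of all tested genes passed in either direction. Between AI and CM, 2 were called higher, again Klf9 and Klf15, against 8.68% of all tested genes, and 3 lower, Klf2, Klf4 and Klf6, against 13.5%, and 4 rose and 5 fell by the adjusted p alone, against 59%. Between AI and OI, none was called higher, against 7.8% of all tested genes, and Klf2, Klf4 and Klf6 were called lower, against 14.1%, and 2 rose and 5 fell, against 58.8%. Over the 10 genes, the median log2 fold change in these 3 comparisons was 0.49, -0.41 and -0.46, beside 0.00, -0.00 and 0.01 over all tested genes. The comparisons with CM share the CM samples, and those with AI share the AI samples.

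**Figure D5:**
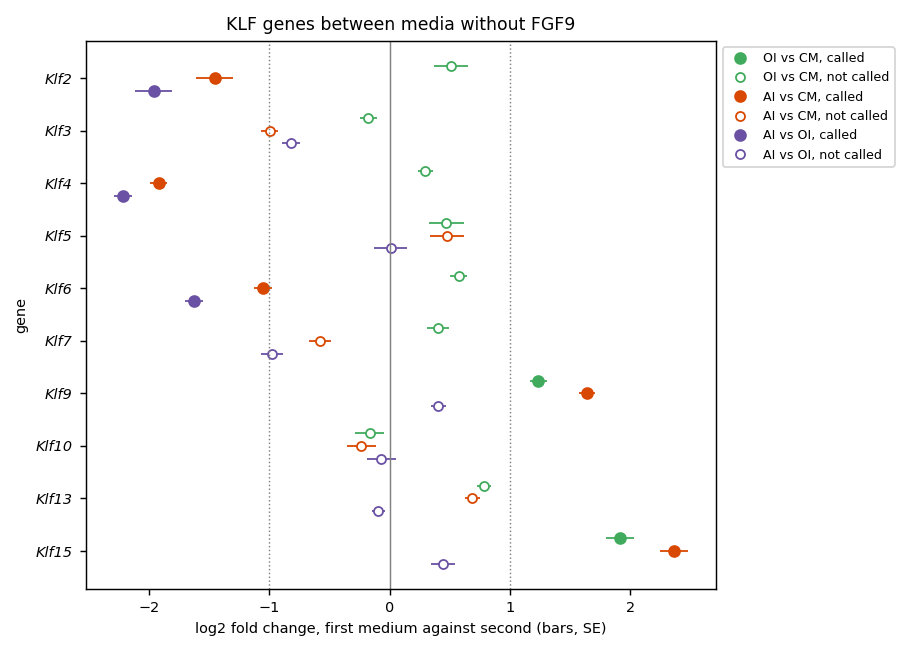
Log2 fold change of each gene between media without FGF9, OI against CM, AI against CM and AI against OI (points, bars are the SE of the fit), filled where called, with dotted lines at -1 and 1. Klf15 lies at 1.92 and 2.36 and Klf9 at 1.24 and 1.64 against CM, and Klf4 lies at -1.92 in AI against CM and at -2.22 in AI against OI.

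Klf9 was 11.97, 12.8 and 11.5 FPKM in CM, 29.7, 28.3 and 28.5 FPKM in OI and 39.4, 41.1 and 41.6 FPKM in AI. The 3 groups did not overlap, and the log2 fold change was 1.24 ± 0.07 in OI and 1.64 ± 0.07 in AI against CM and 0.41 ± 0.07 in AI against OI (adjusted p = 2.55e-12, 1.43e-15 and 1.28e-05). Klf15, with the values given above, rose from a mean of 1.69 FPKM in CM to 6.50 FPKM in OI and 9.42 FPKM in AI. The groups again did not overlap, and its log2 fold changes were 1.92 ± 0.12, 2.36 ± 0.11 and 0.45 ± 0.10 (adjusted p = 1.08e-11, 2.17e-14 and 5.22e-04). Klf13 rose from a mean of 7.11 FPKM in CM to 12.4 FPKM in OI and in AI, by 0.78 ± 0.06 and 0.69 ± 0.06 on the log2 scale (adjusted p = 5.36e-10 and 7.50e-10). Between AI and OI, the groups overlapped for Klf13, with a log2 fold change of -0.09 ± 0.06 (adjusted p = 0.176). Klf5 rose by 0.47 in OI and 0.48 in AI against CM, and the rise in OI did not pass without CM replicate 1, CM replicate 3 or OI replicate 2 (adjusted p = 0.0761, 0.0795 and 0.109).

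Both induction media contain dexamethasone, a glucocorticoid. Genes of the glucocorticoid response, 15 in a list chosen with earlier results known, were measured beside Klf9 and Klf15. The part of dexamethasone in the levels of Klf9 and Klf15 was not tested, since each medium differs from CM in other agents and in its base. Of the 15, 12 were called higher and none lower in OI against CM, with a median of 2.16, and 12 higher and none lower in AI against CM, with a median of 3.05. Over all tested genes, 3.55% were called higher and 1.93% lower in OI, and 8.68% higher and 13.5% lower in AI. Fkbp5, a chaperone of the receptor, was 1.83, 1.5 and 1.53 FPKM in CM, 29.4, 29.0 and 28.0 FPKM in OI and 36.2, 39.6 and 38.4 FPKM in AI. Zbtb16, a zinc finger factor, had log2 fold changes of 5.52 and 5.96 (adjusted p = 3.43e-17 and 6.08e-19). Nr3c1, the gene of the receptor itself and also on the list, fell by 0.67 in OI and by 0.95 in AI (adjusted p = 9.38e-08 and 3.95e-11). With FGF9, 5 of the 15 were called higher and none lower in CM, 3 higher and 2 lower in OI and 2 higher and 2 lower in AI. The shares of all tested genes were 5.5% higher and 5.16% lower in CM, 5.48% and 6.07% in OI, and 6.66% and 9.32% in AI. By the adjusted p alone in edgeR, 9 of the 15 rose and 3 fell with FGF9 in CM, beside 37.3% of all tested genes in either direction. Fkbp5 rose by 1.84 in CM, where Klf9 did not pass the test and Klf15 fell. How these responses are related was not tested.

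The genes of branched-chain amino acid and glucose metabolism that are linked to Klf15 were mostly higher in AI. Of 9 tested genes of 10, 2 were called higher in OI against CM, with a median of 0.22, and 7 higher and 1 lower in AI against CM, with a median of 1.43. Over all tested genes, 3.55% were called higher in OI, and 8.68% were called higher and 13.5% lower in AI. Bcat2, the mitochondrial branched-chain aminotransferase, was 6.73, 6.35 and 8.71 FPKM in CM, 11.7, 12.1 and 12.3 FPKM in OI and 32.3, 32.4 and 34.7 FPKM in AI. Slc2a4 was 0.12 to 0.20 FPKM in CM, 0.65 to 0.75 FPKM in OI and 9.01 to 10.6 FPKM in AI, a log2 fold change of 5.76 in AI. The adipocyte markers moved in the same comparisons: of 8, all were called higher in AI against CM, with a median of 6.23, and 5 with FGF9 in AI, and their summed level was 77.0 to 101 FPKM in CM, 1906 to 2110 FPKM in AI and 4702 to 5128 FPKM in AI_F9. Their part in the levels of Klf15 and of the genes linked to it was not tested. With FGF9 in AI, 4 of the branched-chain list were called higher, where 6.66% of all tested genes were. These were Gpt2, Bcat2, Bckdhb and Slc2a4, by 1.21, 1.10, 1.12 and 1.01 on the log2 scale, beside 0.29 in Klf15. In OI, where Klf15 was called lower with FGF9, none of the 9 was called, beside 5.48% of all tested genes called higher and 6.07% lower. By the adjusted p alone in edgeR, 4 of the 9 rose and none fell, with a median of 0.11. Of all tested genes, 39.9% passed in either direction there, so this count was near that share.

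Klf2, Klf4 and Klf6 stood lowest in AI among the media without FGF9. The 3 AI libraries lay below all CM and OI libraries for each of them, and the log2 fold changes against CM were -1.46 ± 0.15, -1.92 ± 0.07 and -1.05 ± 0.07 (adjusted p = 2.02e-08, 2.40e-16 and 1.40e-11). Against OI they were -1.96 ± 0.15, -2.22 ± 0.07 and -1.63 ± 0.07 (adjusted p = 1.17e-10, 2.14e-17 and 5.86e-15). The call of Klf6 against CM was lost with library-size scaling, at -0.94. It was also lost with limma on log2 FPKM plus 0.1, 0.5 or 1, at -0.94, -0.93 and -0.91. In OI the same genes rose against CM, Klf2 by 0.51, Klf4 by 0.30 and Klf6 by 0.57 (adjusted p = 0.0103, 0.00162 and 1.36e-06). The rise of Klf2 did not pass without CM replicate 2, CM replicate 3 or OI replicate 3 (adjusted p = 0.0567, 0.0579 and 0.0574) or with limma on log2(FPKM + 0.1) (adjusted p = 0.166). All 8 smooth muscle genes were called lower in AI against CM, beside 13.5% of all tested genes, and 1 was called higher in OI, beside 3.55%. The endothelial sum was higher in AI, at 16.4 to 18.5 FPKM, than in CM, at 9.17 to 11.9 FPKM. The part of these marker genes in the result was not tested.

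Klf3 and Klf7 lay close to the threshold in these comparisons. Klf3 fell by 1.00 on the log2 scale, just short of a call, in AI against CM and by 0.82 against OI (adjusted p = 5.52e-11 and 1.76e-09). It was called against CM in DESeq2 and without CM replicate 3, AI replicate 1 or AI replicate 2, at -1.01, -1.08, -1.01 and -1.02. With the stricter filter it was called too, at -1.01. Klf7 fell by 0.58 against CM and by 0.98 against OI (adjusted p = 1.07e-05 and 3.35e-09), and it was called against OI without OI replicate 2 or AI replicate 1, at -1.06 and -1.001. In OI against CM, Klf7 rose by 0.40 and Klf3 had a log2 fold change of -0.18 (adjusted p = 0.00183 and 0.0849). Klf10 did not pass the test between the media, with log2 fold changes of -0.17 in OI and -0.23 in AI against CM and -0.07 in AI against OI (adjusted p = 0.376, 0.102 and 0.656). Its FPKM in the AI libraries lay below those in CM without overlap. Over the alternatives, its adjusted p against CM went down to 0.0413 in OI and 0.0295 in AI.

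Genes with which Kruppel-like factors are known to work in fat cell formation were mostly higher in AI. Of 10 such genes, 4 were called higher and none lower in OI against CM, and 7 higher and 1 lower in AI against CM, with medians of 0.66 and 1.73. Over all tested genes, 3.55% were called higher and 1.93% lower in OI, and 8.68% higher and 13.5% lower in AI. Cebpa, a target repressed by Klf3 in mouse, was 17.3, 16.7 and 19.6 FPKM in CM, 26.8, 28.6 and 25.9 FPKM in OI and 128, 133 and 136 FPKM in AI. Pparg, the receptor that drives fat cell formation, was 7.92, 8.46 and 8.93 FPKM in CM and 20.9, 22.6 and 23.9 FPKM in AI. With FGF9, 2 were called higher and none lower in CM, 2 higher and 1 lower in OI, and 3 higher and 2 lower in AI. The shares of all tested genes were 5.5% higher and 5.16% lower in CM, 5.48% and 6.07% in OI, and 6.66% and 9.32% in AI. In AI, Pparg rose by 1.11 to 40.2, 40.9 and 45.3 FPKM, and Cebpd and Egr2 were called lower, at -1.11 and -2.46. In CM and OI, where Klf2 was called lower, Pparg had log2 fold changes of -0.06 and -0.32 (adjusted p = 0.667 and 0.00807). Dlk1, the preadipocyte factor that Klf6 is known to repress, was called higher with FGF9 in CM and OI, at 1.70 and 1.02, where Klf6 fell, and had 0.07 in AI (adjusted p = 0.567), where Klf6 also fell. Whether Klf2, Klf3 or Klf6 had a part in the levels of Pparg, Cebpa or Dlk1 was not tested.

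The FGF9 effects were then compared between media by the interaction terms of the same fit, each a difference of 2 log2 fold changes. Between OI and CM, none of the 10 genes was called, where 1.63% of all tested genes were in either direction, and 2 differed by the adjusted p alone, Klf4 and Klf15, at -0.44 and -0.66, where 5.48% of all tested genes passed. Between AI and CM, 1 was called, Klf2, with a difference of -2.11 ± 0.34 (adjusted p = 2.25e-05), where 14.1% of all tested genes were called, and 7 differed by the adjusted p alone, where 39.9% did. Between AI and OI, 3 were called, where 14% of all tested genes were, and 4 differed by the adjusted p alone, where 40% did. These 3 were Klf2, at -1.68 ± 0.34 (adjusted p = 3.62e-04), Klf7, at -1.15 ± 0.14 (adjusted p = 4.44e-07), and Klf15, at 1.39 ± 0.15 (adjusted p = 5.29e-08). FGF9 thus lowered Klf2 and Klf7 further in AI than in OI, and it lowered Klf15 in OI and raised it slightly in AI, a rise that was lost with library-size scaling. For Klf2 in AI, where few reads were left, the difference depended on the scale. With limma on log2(FPKM + 0.5) it was -0.82 between AI and OI (adjusted p = 0.011), short of a call. With limma on log2(FPKM + 1) it was -0.33 between AI and OI (adjusted p = 0.204) and -0.76 between AI and CM (adjusted p = 0.00580). On this last scale Klf7 and Klf15 also lost their calls between AI and OI, at -0.95 and 0.93.

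Of the other 7 genes named Klf and a number, 4 passed the filter, Klf8, Klf11, Klf12 and Klf16, and Klf1, Klf14 and Klf17 had mean levels of at most 0.193 FPKM. Klf8, which like Klf3 and Klf12 binds CtBP, fell from means of 1.02 FPKM in CM and 1.41 FPKM in OI to 0.230 FPKM in AI, a log2 fold change of -2.25 against CM (adjusted p = 9.39e-09). Klf12 was called higher with FGF9 in OI, at 1.16 (adjusted p = 1.65e-05), and lower in AI against CM, at -1.14 (adjusted p = 7.25e-05). Klf11 and Klf16 were not called in any of the 9 comparisons, with mean levels of 1.27 to 2.65 FPKM and 3.12 to 4.96 FPKM. Of 9 SP genes, the nearest relatives of the family, 5 were tested. Sp7, the osteoblast factor osterix, was called lower in AI, at -1.17 against CM (adjusted p = 3.56e-10) and -1.69 against OI (adjusted p = 4.27e-13), and Sp1, Sp2, Sp3 and Sp4 were not called in any comparison. Of 15 genes of corepressors, coactivators and turnover enzymes that work with Kruppel-like factors, such as Ctbp1 and Wwp1, none was called in any of the 9 comparisons in edgeR, while 5, 4, 9, 4, 8 and 9 passed the adjusted p alone in the 6 comparisons of FGF9 and of media, in the order given above, beside 37.3%, 39.9%, 50.6%, 22.6%, 59% and 58.8% of all tested genes.

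The genes most like Klf2, Klf15 and Klf4, the 3 members with the widest range of group means on a log2(FPKM + 0.5) scale, were sought by Pearson correlation of log2 CPM (counts scaled by library total and TMM factor) over the 18 samples. These r describe 6 groups of 3 samples that share media and FGF9 treatment. Klf2 was most like Lmod1, leiomodin of smooth muscle and a member of the smooth muscle list above, with r = 0.992, then Vgll3, a cofactor of TEAD proteins, with 0.987, and Ccn2 with 0.981. Lmod1 had means of 12.7, 1.89, 15.96, 1.49, 2.997 and 0.0267 FPKM in CM, CM_F9, OI, OI_F9, AI and AI_F9, and Vgll3 had 48.0, 16.3, 63.7, 18.3, 27.0 and 1.76 FPKM. As for Klf2, the highest mean was in OI and the lowest in AI_F9. Klf15 was most like Nr1h3, the liver X receptor alpha, with r = 0.977, then Wnk4, a kinase of salt transport, with 0.976, and Rgcc, a cell cycle regulator, with 0.969. Klf4 was most like C1s1, a complement protease, with r = 0.993, then Il34, a ligand of the macrophage receptor CSF1R, with 0.992, and Acvrl1, the receptor ALK1, also with 0.992. C1s1 had means of 39.9, 52.3, 53.4 and 45.1 FPKM in CM, CM_F9, OI and OI_F9 and of 3.34 and 2.48 FPKM in AI and AI_F9, the same division of AI from the other media as in Klf4.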

How the data were processed

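BMSCs from mouse were measured by RNA-seq in 6 groups of 3 samples, which were grouped by their labels. Per the labels, the submitters' processing notes name cutadapt 1.9.1, HISAT2 2.2.1, HTSeq 0.6.1 and the build GRCm39. The deposited read counts are whole reads per gene and are not normalized, and the deposited FPKM values were computed by the authors from those counts. Recomputing FPKM from counts, lengths and totals gave every value of 5 or more to within 1%. Poly(A) RNA was selected, and the sources used here do not give the strand setting.

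The quasi-likelihood test of edgeR 4.0.16 in R 4.3.3 was run on all 18 libraries together, after filterByExpr and TMM scaling, with a mean for each of the 6 groups and 12 residual degrees of freedom. The Benjamini-Hochberg adjustment covered the 17631 tested genes of a comparison. An SE is the absolute log2 fold change divided by the root of the F statistic. The fit was tested on simulated data. With 3 samples against 3, an exact two-sided permutation test of 1 gene cannot give a p below 0.1, so none is given. Depth limits genes with few reads, and the counting interval of Klf2 covers counting error only. The 10 genes, the lists and the tests were chosen with earlier results of these data known. All 10 members were named, with other KLF and SP genes that passed the filter, up to 4 called genes of a list by adjusted p or a list's defining genes, and the 3 genes most like each of 3 members (TMM-scaled log2 CPM, prior count 2). Vwf, Pecam1, Cdh5, Mapk7, Nr3c1, Ctbp1, Wwp1 and the values of a listed gene in comparisons where it was not called were named after values were seen, as were Cebpa and Fkbp5 as examples. Some listed genes are not reported here by name. Same-numbered replicates were correlated in their deviations from the group means. For FGF9 in OI all 3 correlations were over 0.1 (0.12 to 0.17), so equal numbers may be pairs there. This rests on the data alone, since no label gives a shared day or animal. The tests given above are unpaired in every comparison. A replicate block, run as an alternative, changed no call of a member. Alternatives were DESeq2 1.42.0, library-size scaling, no filter and a stricter filter, limma 3.58.1 on log2 FPKM plus 0.1, 0.5 or 1, only the compared groups, a replicate block and leaving out each library. Promoter sequences are RefSeq's on GRCm38.p6.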

Additional observations from a re-analysis of the deposited data

Results flagged for a closer look

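The effect of FGF9 was compared between media by the interaction test of the edgeR fit, and the differences with an adjusted p of at most 0.05 are given here. Of all tested genes, 5.48% passed between OI and CM, 39.9% between AI and CM and 40% between AI and OI. Between OI and CM, the difference in log2 fold change was -0.44 for Klf4 and -0.66 for Klf15. Between AI and CM, it was -2.11 for Klf2, -0.27 for Klf3, -0.41 for Klf4, -0.37 for Klf6, -0.86 for Klf7, 0.43 for Klf10 and 0.73 for Klf15. Between AI and OI, it was -1.68 for Klf2, -0.58 for Klf5, -1.15 for Klf7 and 1.39 for Klf15. A negative value means that FGF9 lowered the gene more, or raised it less, in the first medium named. Klf9 and Klf13 did not pass this test in these 3 comparisons, with adjusted p of 0.0852 to 0.897. Under some alternatives they did pass. The adjusted p of Klf9 went down to 0.00975 between AI and CM and to 0.00335 between AI and OI. That of Klf13 went down to 0.00295 between AI and CM, 0.0425 between AI and OI and 0.0428 between OI and CM. Klf6 between OI and CM had 0.052 in the main fit and as little as 0.0068 in an alternative. The value of Klf10 between AI and CM ranged from 0.13 to 0.47 and its adjusted p reached 0.508 over the alternatives, and that of Klf3 ranged from -0.54 to -0.22 with an adjusted p of up to 0.126. Between OI and CM, that of Klf15 ranged from -0.83 to -0.49 with an adjusted p of up to 0.192. Between AI and OI, that of Klf5 ranged from -0.84 to -0.45 with an adjusted p of up to 0.0528, and that of Klf2 from -2.06 to -0.33 with an adjusted p of up to 0.204.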

How the results depend on the processing

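Of 1530 values of members under 27 alternatives, 1495 were counted as unchanged, 21 lost a call, 10 gained one and 4 reversed. Unchanged refers to the call, so values that only lost or gained an adjusted p of at most 0.05 were counted as unchanged. Such were values of Klf15 and Klf5 with FGF9 in AI, with adjusted p of up to 0.608 and 0.226. A change of sign counted as reversed only where the main or the alternative value had an adjusted p of at most 0.05. Some of the 1495, such as values of Klf13 with FGF9 in AI, therefore changed sign without passing the test. The reversed ones were Klf9 with FGF9 in AI, at -0.19 with library-size scaling and at -0.19 with limma and each of the 3 pseudocounts (0.1, 0.5 and 1). The number of members called with FGF9 in OI went from 3 to 1 with limma plus 0.5 or plus 1. For the difference in FGF9 effect, it went from 1 to 2 between AI and CM with library-size scaling or limma plus 0.1 and to 0 with limma plus 1, and from 3 to 0 between AI and OI with limma plus 1. Over all tested genes, calls went from 1878, 2036 and 2818 with FGF9 in CM, OI and AI to 1116, 1147 and 1808 with the stricter filter, which tests fewer genes, to 991, 1059 and 1435 with limma plus 0.5 and to 761, 793 and 1069 with limma plus 1. For OI against CM, AI against CM and AI against OI they went from 966, 3919 and 3859 to 538, 2253 and 2212, to 388, 2083 and 2080 and to 271, 1532 and 1559 in the same order. For the differences in FGF9 effect they went from 287 to 185 and 123 (OI and CM, limma plus 0.5 and 1), from 2488 to 1302 (AI and CM, limma plus 1) and from 2474 to 1244 (AI and OI, limma plus 1). Library-size scaling shifted the median log2 fold change by -0.21 with FGF9 in AI, by 0.11 for AI against CM, and by -0.27 and -0.25 for the effects in AI against CM and OI. The share of calls that were higher went with it from 41.7% to 27.8% in AI and from 40.1% to 20.7% and 42.7% to 23.1% for these effects. The cause of these changes was not tested. Leaving out each library in turn gave 2 to 3 members called with FGF9 in OI, 5 to 6 for AI against CM and 3 to 4 for AI against OI, and the counts of members in the other 6 comparisons did not change. A replicate block kept 3 members called with FGF9 in OI and 3 in AI, 1 in CM, and moved the calls over all genes from 2036 to 2065 in OI and from 1878 to 1900 in CM. With FGF9 in OI, 6 of 6 samples were closest to their own number. The same held with FGF9 in CM, but with r of only 0.02 to 0.03. In the other comparisons, 2 to 4 of 6 samples were closest to their own number. Klf2 in AI_F9 is limited by its 34 reads.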
